A study of Drosophila melanogaster with 8 samples.

Results

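The genes described here are 9 markers of glia, the non-neuronal cells of the nervous system: repo, alrm, Eaat1, Eaat2, Gs2, wrapper, moody, nrv2 and Mdr65. They were chosen by symbol, through their FlyBase gene IDs, and all 9 were found among the 14701 gene IDs of the authors' deposited table, each on a single row with a p-value. The table compared mated adult females from a pair of Drosophila melanogaster strains named Dahomey and Oregon R, aged 10 days and kept at 25 °C. Each strain had 4 libraries, each library was made from the pooled heads and thoraxes of 60 flies, and no treatment or engineered allele is named for either strain. Values per library were not used here: every level is a mean over the 8 libraries in normalized read counts, and every error is the authors' standard error (SE) of a log2 fold change. Positive log2 fold changes were taken to mean more RNA in Dahomey because that strain comes first in the name of the comparison; no header states the sign, and the opposite reading would turn every direction below at once.

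Fly glia form layers with separate tasks. Astrocyte-like glia send processes among synapses and clear transmitter, cortex glia wrap the cell bodies of neurons, and surface glia seal the nervous system from the blood with septate junctions and efflux pumps. Glutamate taken up by glia is turned into glutamine by glutamine synthetase, which returns the carbon skeleton and nitrogen to neurons. In RNA from whole heads and thoraxes, fewer cells of a type and less RNA per cell cannot be told apart, and several of these genes are also transcribed outside glia.

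All 9 genes were well covered, and their levels spanned a wide range. The mean normalized counts in the authors' deposited table ran from 2508 for wrapper to 124014 for Gs2, a 49.5-fold range, and Gs2 alone held 49.5% of the sum over the 9 genes. Because a long transcript yields more reads, levels of different genes were set side by side only per kilobase (kb) of exon. On that scale Gs2, the cytosolic glutamine synthetase, had 55587 counts per kb. The glutamate transporter gene Eaat1 followed with 13935 counts per kb, the sodium pump subunit gene nrv2 with 9210 and Eaat2, whose product carries aspartate and taurine, with 7235. The astrocyte gene alrm had 2934 counts per kb. The remaining genes lay close together, with 1268 counts per kb for wrapper, 1260 for Mdr65, 1237 for repo and 1182 for moody. Their order has no error attached, because the spread of a level between libraries was not analysed here. Per kb, Eaat1 stood 11.3-fold above repo and 1.93-fold above Eaat2.

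**Figure D1:**
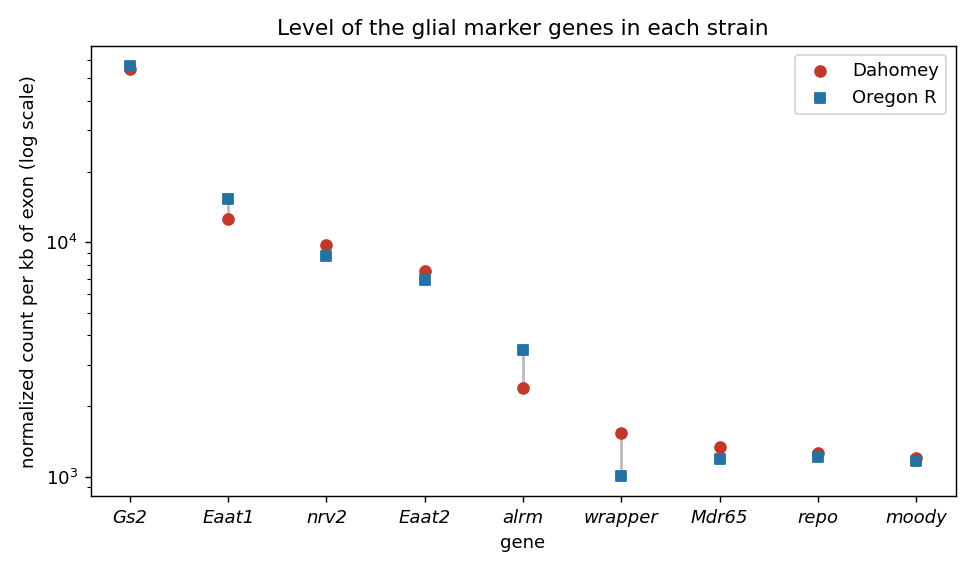
Level of each glial marker gene in Dahomey (circles) and Oregon R (squares), in normalized counts per kb of exon on a log axis; each strain's value was computed from the deposited mean and fold change, and no error bar is drawn because values per library were not used. Gs2 lies near 55587 counts per kb, and wrapper moves from the lowest place in Oregon R, at 1008, to above Mdr65, repo and moody in Dahomey, at 1529.

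Of the 9 glial markers, wrapper was higher in Dahomey, alrm and Eaat1 were higher in Oregon R, and the other 6 did not pass the authors' DESeq2 test at an adjusted p under 0.05. That is 3 of 9, or 33.3%, beside 29.4% of all 13395 rows with a p-value and 37.2% of the rows with a mean of at least 1000, which all 9 genes reached. By direction, 1 of 9 stood beside 14.7% of all rows for Dahomey, and 2 of 9 beside 14.7% for Oregon R. With at least 1.5-fold also required, wrapper alone passed, beside 10.1% of all rows. The share of markers that passed was therefore near the background. Their median log2 fold change was 0.06 and their median absolute log2 fold change 0.16, against -0.0056 and 0.17 over all rows with a p-value. Over the rows with a mean of at least 1000 these medians were -0.0005 and 0.14. Summed over the 9 genes, the level computed from mean and fold change was 248123 in Dahomey and 253166 in Oregon R.

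**Figure D2:**
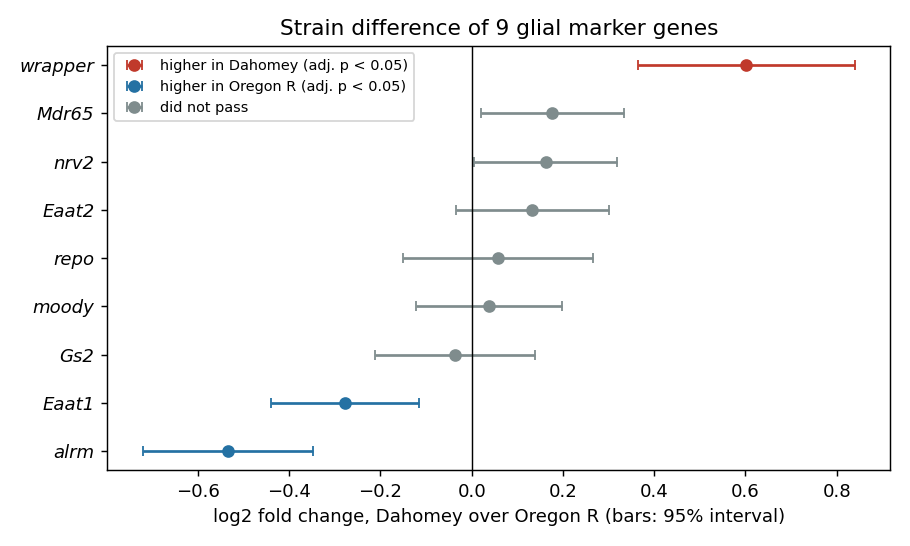
Log2 fold change of Dahomey over Oregon R for each glial marker gene (points) with its 95% interval (bars), computed from the authors' SE; color gives the outcome of the authors' test. wrapper at 0.60 lies to the right and alrm at -0.53 and Eaat1 at -0.28 to the left; the intervals of Mdr65 and nrv2 lie just above 0 although these genes did not pass, and those of the other 4 include 0.

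The gene that defines most fly glia did not differ detectably between the strains. Repo is a homeodomain transcription factor made in nearly all glia outside the midline, and it is the usual label for counting glial nuclei. The level of repo was 3779 in Dahomey and 3631 in Oregon R, and the authors' deposited table listed 0.06 ± 0.11 as log2 fold change with its SE (adjusted p = 0.772, DESeq2). The 95% interval ran from 0.90-fold to 1.20-fold, so a larger difference in either direction lay outside it. At this SE a difference of about 1.20-fold would have been needed to pass. Of the exon bases of repo, 183, or 6.11%, are shared with CG7156 on the opposite strand, and the library kit does not mark strand; CG7156 had a log2 fold change of 0.07 ± 0.062 in the authors' deposited table.

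Among the genes of astrocyte-like glia and transmitter uptake, alrm and Eaat1 were lower in Dahomey, and Eaat2 and Gs2 did not pass. The gene alrm encodes a leucine-rich repeat protein of the cell surface and is the standard label of astrocyte-like glia. Its level was 4115 in Dahomey and 5959 in Oregon R, a 1.45-fold higher level in Oregon R. The authors' deposited table gave alrm a log2 fold change of -0.53 ± 0.095 (adjusted p = 2.59e-07, DESeq2), with a 95% interval from -0.72 to -0.35, and 14.3% of tested genes had a larger absolute log2 fold change. Eaat1 is the main high-affinity glutamate transporter of fly glia. Its level was 39543 in Dahomey and 47939 in Oregon R, 1.21-fold higher in Oregon R. For Eaat1 the authors' deposited table had a log2 fold change of -0.28 ± 0.083 (adjusted p = 0.00399, DESeq2), and the 95% interval ran from -0.44 to -0.12.

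The related transporter gene Eaat2 had a fold change of the opposite sign that did not pass. Its level was 30243 in Dahomey and 27580 in Oregon R, and the authors' deposited table gave a log2 fold change of 0.13 ± 0.086 (adjusted p = 0.272, DESeq2), with a 95% interval from 0.98-fold to 1.23-fold. Gs2, the most abundant of the 9, was nearly level between the strains, at 122470 in Dahomey and 125557 in Oregon R. Its log2 fold change in the authors' deposited table was -0.04 ± 0.089 (adjusted p = 0.83, DESeq2), and its interval ran from 0.86-fold to 1.10-fold. The intervals of Eaat1 and Eaat2 do not overlap, but both come from the same libraries and the difference between the genes was not tested.

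The cortex glia gene wrapper had the largest fold change of the 9, and it was higher in Dahomey. Wrapper is a surface protein of the immunoglobulin family by which glia adhere to and ensheathe neurons, first known from midline glia of the embryo. Its level was 3024 in Dahomey and 1992 in Oregon R, a 1.52-fold difference, and the authors' deposited table gave an adjusted p of 6.63e-06. The 95% interval ran from 1.29-fold to 1.79-fold. The same gene was the least precise of the 9: its SE of 0.12 was 1.52 times the median SE of the 500 genes nearest to it in mean, against 1.05 to 1.39 times for the other 8. Among all genes tested, 12.1% had a larger absolute log2 fold change.

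**Figure D3:**
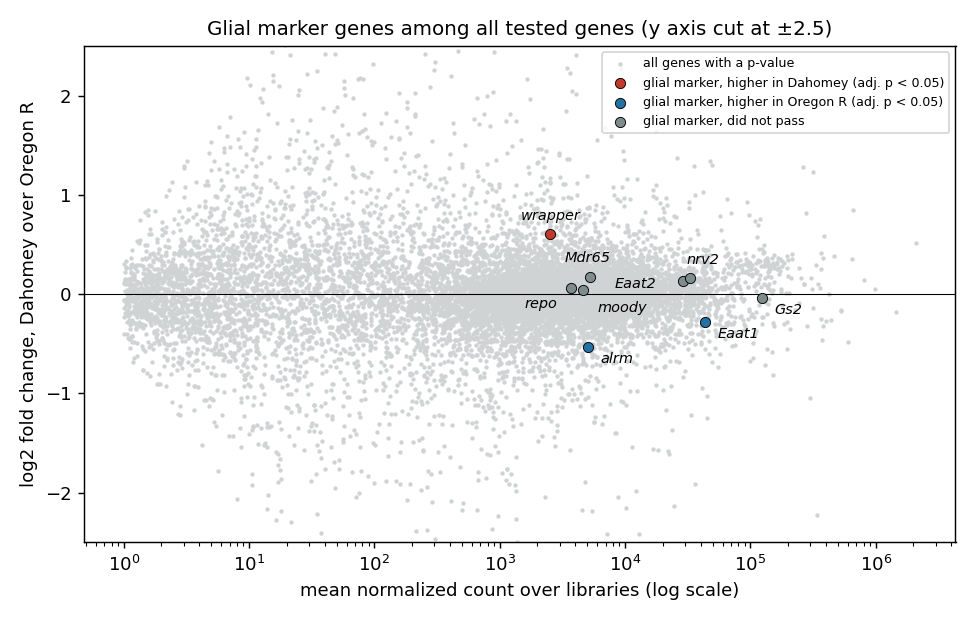
Log2 fold change of Dahomey over Oregon R against mean normalized count (log axis) for all genes with a p-value and a mean of at least 1 (grey) and for the 9 glial markers (colored by the outcome of the authors' test), with the most extreme genes outside the frame. The markers sit at means from 2508 to 124014, and wrapper at 0.60 and alrm at -0.53 lie at the edge of the dense band of genes of like mean.

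The 3 genes of the blood-brain barrier and of ion transport had small positive fold changes, and each missed the threshold. Moody is a G-protein-coupled receptor of subperineurial glia that acts in the sealing of the barrier. Its level was 4716 in Dahomey and 4596 in Oregon R; it had a log2 fold change of 0.04 ± 0.082 in the authors' deposited table (adjusted p = 0.807, DESeq2) and a 95% interval from 0.92-fold to 1.15-fold. Mdr65 encodes the efflux pump of the same cells, an ABC transporter related to mammalian P-glycoprotein. Its level was 5531 in Dahomey and 4893 in Oregon R, and the authors' deposited table gave 0.18 ± 0.080 (adjusted p = 0.084, DESeq2). nrv2 encodes a beta subunit of the sodium-potassium pump that is used as a pan-glial driver and is also needed in septate junctions of epithelia. Its level was 34701 in Dahomey and 31019 in Oregon R, with 0.16 ± 0.079 in the authors' deposited table (adjusted p = 0.118, DESeq2). For Mdr65 and nrv2 the unadjusted p was 0.0274 and 0.0416, and their 95% intervals reached at most 1.26-fold and 1.25-fold. Differences of 1.14-fold for nrv2 and 1.15-fold for Mdr65 would have passed at their SE.

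Close relatives of the markers were measured in the same libraries, and 2 of them passed: Gs1 and Mdr49. The authors' deposited table had Gs1, the mitochondrial glutamine synthetase, higher in Dahomey by 0.47 ± 0.11 log2 units (adjusted p = 6.41e-05, DESeq2), beside the value near 0 of Gs2; per kb, the level of Gs2 was 6.72 times that of Gs1. Of the sodium pump, the authors' deposited table had the beta subunit genes nrv1 at -0.01 ± 0.078 and nrv3 at 0.0097 ± 0.090 and the catalytic subunit gene Atpalpha at 0.0079 ± 0.058. None of the 4 pump genes listed besides nrv2 passed with DESeq2, beside 29.4% of all rows, and 0 of 4 had an unadjusted p under 0.05. JYalpha, a catalytic subunit gene among these 4, had a mean count of only 5.39 and an SE of 0.38. Among the ABC transporter genes, Mdr49 was higher in Oregon R in the authors' deposited table, at -0.54 ± 0.072 (adjusted p = 1.33e-12, DESeq2). Its level per kb was above that of Mdr65, which had 0.563 times as much. Mdr50 had 0.58 ± 0.21 and no p-value there. Whether a relative differed from its marker in fold change was not tested.

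Genes that share a process with the markers differed in both directions. Of 10 genes that make, break down or carry glutamate and GABA, 3 had more RNA in Dahomey and 2 in Oregon R, or 50% beside the 37.2% of all rows with a mean of at least 1000, which each of these genes reached. The aspartate aminotransferase gene Got2 had 0.78 ± 0.091, against -0.45 ± 0.047 for Gdh, glutamate dehydrogenase, and -0.40 ± 0.057 for Gabat, GABA transaminase, in the authors' deposited table. The other 5, which are Gat, Gad1, VGAT, VGlut and gb, did not pass and had log2 fold changes from -0.18 to 0.18; Gat, the GABA transporter of astrocyte-like glia, had -0.18 ± 0.097 in the authors' deposited table (adjusted p = 0.156, DESeq2).

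Most septate junction genes did not pass: 4 of 18 had more RNA in Dahomey, 2 had more in Oregon R and 12 missed the threshold, with a median log2 fold change of -0.03. The share that passed, 33.3%, was near the 37.2% of all rows with a mean of at least 1000. The tricellular junction genes bark and Gli had 0.53 ± 0.099 and 0.34 ± 0.080 in the authors' deposited table, and bou and Nrg had -0.38 ± 0.086 and -0.20 ± 0.066. Septate junctions also seal epidermis, trachea and gut, so this list is not a list of glia alone. Of 6 genes that signal downstream of Moody, loco, a regulator of G-protein signalling, and Galphao passed with more RNA in Dahomey, by 0.28 ± 0.072 and 0.17 ± 0.070 in the authors' deposited table. The other 4 of that pathway, Galphai, Gbeta13F, Ggamma1 and Pka-C1, did not pass. The share that passed was 33.3%, all toward Dahomey. Beside it, 37.2% of all rows with a mean of at least 1000 passed, and 14.7% of all rows were higher in Dahomey. Of the barrier's transporter genes 13 had a p-value; 5 of these were higher in Oregon R and 3 in Dahomey, 61.5% in all beside 29.4% of all rows and 37.2% of those with a mean of 1000 or more. The authors' deposited table had the trehalose transporter gene Tret1-1 at 0.32 ± 0.069 and the amino acid transporter gene JhI-21 at 0.28 ± 0.047, against -0.84 ± 0.076 for the sugar transporter gene pippin and -0.39 ± 0.041 for the citrate transporter gene Indy.

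Other genes known from fly glia differed in both directions. Of 10 with a p-value, 6 were higher in Oregon R and 2 in Dahomey, beside 14.7% of all rows in each direction. That is 80% in all, beside 37.2% of all rows with a mean of at least 1000, which each of these 10 reached. Their median log2 fold change was -0.22, and whether the list leaned to a strain was not tested. The most marked was Obp44a, a member of the odorant-binding protein family that is abundant in glia, at -1.92 ± 0.11 in the authors' deposited table (adjusted p = 1.06e-61, DESeq2), a 3.77-fold higher level in Oregon R. Second was rumpel, a solute carrier gene of ensheathing glia, at -1.13 ± 0.11 there. Higher in Dahomey were ine, a transporter gene, at 0.32 ± 0.087 and bdl, an immunoglobulin-family gene, at 0.24 ± 0.070 in the authors' deposited table. The gene e, whose enzyme joins histamine to beta-alanine in glia of the eye, had -1.45 ± 0.19 and no p-value there, and zyd was listed with a mean of 0, which does not show that its RNA was absent, since a change of gene model between annotations was not tested. The gene naz of this list, and para of the neuron list, could not be matched to a row. Of 7 genes of glial fate and growth, the FGF receptor gene htl, which guides the growth of astrocyte-like and cortex glia, was the one that passed, at -0.48 ± 0.10 in the authors' deposited table. That share was 14.3%, beside 29.4% of all rows and 14.7% of all rows higher in Oregon R. The gene ttk, the most abundant of that list, had 0.01 ± 0.067 there. The fate regulators gcm and gcm2 had mean counts of only 13.4 and 16.1 in the authors' deposited table.

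**Figure D4:**
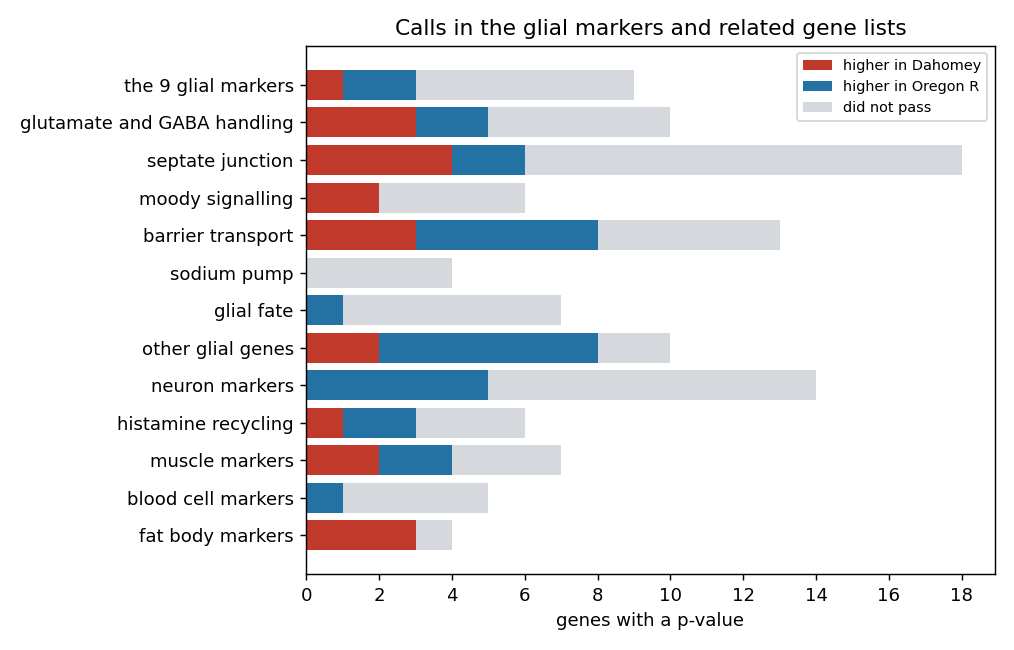
Number of tested genes in each list, divided into those higher in Dahomey, those higher in Oregon R and those that did not pass the authors' test at an adjusted p under 0.05. The 9 glial markers gave 1, 2 and 6, the other glial genes gave 2, 6 and 2, and the neuron markers that passed were all higher in Oregon R.

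Markers of the other cell types of the tissue were read beside those of glia. Of 14 neuron markers, 5 passed, all with more RNA in Oregon R, while 9 missed the threshold. That is 35.7%, beside 37.2% of all rows with a mean of at least 1000 in both directions together. In the Oregon R direction alone, 14.7% of all rows passed. Whether the neuron list leaned to a strain was not tested. The 5 were ChAT, the gene of acetylcholine synthesis, at -0.95 ± 0.10 in the authors' deposited table, and the synaptic genes Syn at -0.50 ± 0.082, Snap25 at -0.43 ± 0.095, Syt1 at -0.37 ± 0.094 and cpx at -0.31 ± 0.10. The pan-neuronal genes elav and fne did not pass, with 0.06 ± 0.12 and 0.0050 ± 0.10 in the authors' deposited table. The median log2 fold change of the neuron list was 0.0013, while its summed level in Dahomey was 0.872 times that in Oregon R, beside 0.98 times for the 9 glial markers. In a list of 7 genes of histamine recycling between photoreceptors and glia, 6 had a p-value and 3 passed, 50% beside 29.4% of all rows. The transporter gene CarT was higher in Dahomey at 0.68 ± 0.11, and Balat and t, at -1.02 ± 0.15 and -0.29 ± 0.11, were higher in Oregon R in the authors' deposited table.

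Muscle markers split, with 2 of the 7 with a p-value passing in each direction. That is 57.1% in all, beside 37.2% of all rows with a mean of at least 1000. The troponin gene up and the myosin gene Mhc were higher in Dahomey, by 0.26 ± 0.048 and 0.16 ± 0.061 in the authors' deposited table. That table gave -0.77 ± 0.10 for TpnC4 and -0.50 ± 0.083 for fln, both of flight muscle. Act88F, also in the list, had 1.25 ± 0.16 there, opposite in sign to TpnC4 and fln, but no p-value and so no call. Of 5 blood cell markers, Pxn was higher in Oregon R at -0.31 ± 0.086 in the authors' deposited table and 4 did not pass; the most abundant, Ppn and Hml, had -0.0041 ± 0.11 and -0.04 ± 0.12 there. Of the fat body markers 4 had a p-value and 3 of these passed, all toward Dahomey. That is 75%, beside 29.4% of all rows in either direction and 14.7% of all rows toward Dahomey. FASN1 had 0.41 ± 0.10, apolpp 0.39 ± 0.11 and Yp1 0.52 ± 0.16 in the authors' deposited table. Lsp2, the fifth, had -1.91 ± 0.39 and no p-value there. The summed level of the 5 fat body genes in Dahomey was 1.40 times that in Oregon R, but Yp1 made up 75.4% of the sum, and without it the ratio was 1.30. No gene of the neuron, muscle, blood cell or fat body lists matched in the table had a mean of 0. The part of these cell types in the fold changes of the glial markers was not tested.

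Neighbours were the nearest tested gene on each side by order of gene start. Beside the 3 markers that passed, 0 had a neighbour that passed in the same direction in the authors' DESeq2 test, and 0 had one with an unadjusted p under 0.05 in that direction. wrapper, on arm 2R, lies between Rtf1 at -0.10 ± 0.056 and CG13506 at -0.07 ± 0.053 in the authors' deposited table, and neither passed. alrm, on arm 3R, lies within the span of Fur1 on the same strand and shares no exon base with it; Fur1 had 0.05 ± 0.071 in the authors' deposited table. The nearest tested genes beside alrm, ND-49L and CG31437, had mean counts of only 6.17 and 3.95 there and an SE of 0.42 each. A change of the size of alrm's could not have passed in them. Eaat1, on arm 2L, lies between CG3748, at a mean of 0.266, and Cks30A, which passed with 0.69 ± 0.28 in the authors' deposited table, opposite in sign to Eaat1. Over all 18 neighbours of the 9 genes, 5 passed, or 27.8% beside 29.4% of all rows.

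The neighbours that passed beside the other markers were Mdh2 next to repo, GABA-B-R3 next to Eaat2, Evi5 next to Gs2 and Sik2 next to moody. GABA-B-R3, a receptor gene for GABA, had -0.50 ± 0.077 in the authors' deposited table, opposite in sign to Eaat2. Sik2, a protein kinase gene, had 0.33 ± 0.065 there, beside 0.04 for moody. Evi5 had 0.30 ± 0.12 and Mdh2 -0.12 ± 0.046 in the authors' deposited table, and neither had the sign of its marker. nrv1 and nrv2 are themselves neighbours on arm 2L. The span of moody overlaps that of CG4313 on the opposite strand, with no exon base in common. By gene start CG4313 is not among the 18 neighbours, but it passed in the authors' deposited table, at 0.31 ± 0.094 (adjusted p = 0.00497, DESeq2). Its sign was that of moody. No annotated gene overlapped any of the 6 markers other than repo, alrm and moody.

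**Figure D5:**
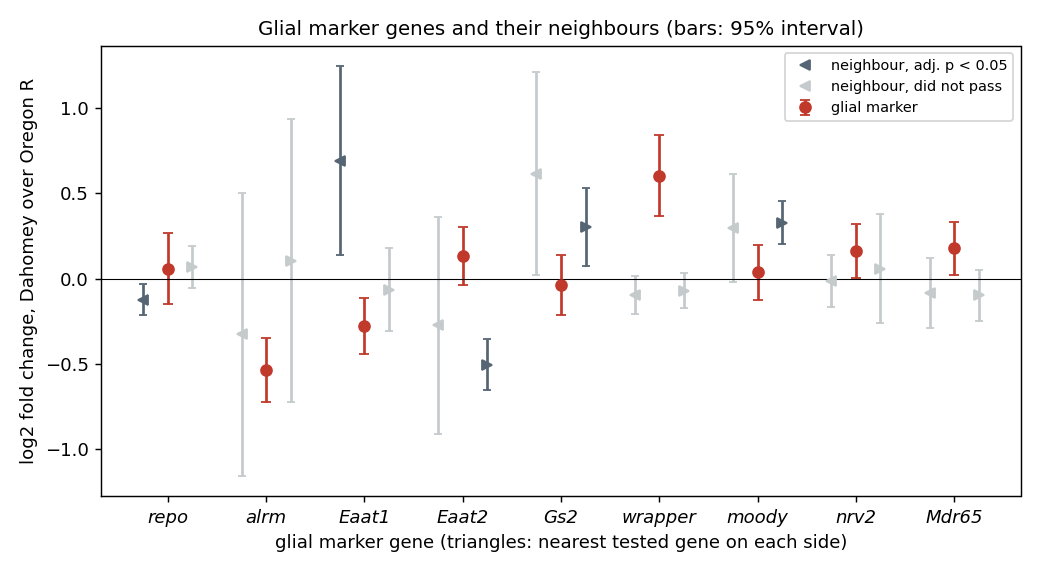
Log2 fold change of Dahomey over Oregon R, with 95% intervals, for each glial marker (circles) and the nearest tested gene by gene start on either side (triangles, dark where the neighbour passed the authors' test). Beside wrapper at 0.60 both neighbours lie near 0, and beside Eaat1 at -0.28 the neighbour that passed lies at 0.69.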

How the data were processed

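Poly(A) RNA was sequenced as read pairs from 4 libraries per strain. The submitters' processing notes name TopHat2 2.0.7, DESeq2, bcl2fastq and FastQC, and the build BDGP5. The sources used here do not give the counting program, its annotation or its strand setting. The authors deposited a finished comparison: a mean signal in normalized read counts, a log2 fold change with its SE in log2 units, and p-values before and after adjustment. The deposited p-value matched a 2-sided Wald test of fold change against SE, with differences of at most 4.1e-15. The fold changes may be shrunken toward 0, so the level in each strain, computed from mean and fold change, is approximate. The intervals, and the differences said to be needed to pass, would then be on the shrunken scale too. Rows with almost no reads can have a small SE, such as 0.12 for CG3748 at a mean of 0.266. A narrow interval there is not a sign of precision.

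The depth of single libraries is unknown beyond the stated 90000000 reads per sample. Since no label names separate cultures, the p-values cover the spread between these samples alone, and that spread may be technical.

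Of 14944 rows, 13395 had a p-value; 14367 of 14701 gene IDs matched a symbol. Where an ID had several rows, that of highest mean was kept. Intervals are the fold change ± the normal 95% limit of the SE. Exon lengths, arms, overlaps and neighbours came from Ensembl release 115 on BDGP6, looked up by gene ID; as the builds differ, no coordinates are given. The markers and lists were chosen with earlier results of these data known. Genes named are the markers, their paralogs, their neighbours, and up to 2 higher and 2 lower genes of smallest p per list. Where fewer than 2 passed, the 2 of highest mean were named. Picked with their values in view were e, zyd, gcm, gcm2, elav, fne, Snap25, Syt1, cpx and Gat. So were Act88F, CG4313, JYalpha, Pxn, Yp1, Lsp2 and the genes listed as not passing. A further gene of the glutamate and GABA list is not reported here and was left out of its counts. The adjustment was tested on simulated data. Alternatives were other thresholds, row filters, centrings and transcript lengths. Python 3.11.15 with numpy 2.4.6, pandas 2.3.3, scipy 1.17.1 and matplotlib 3.10.9 was used.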

Additional observations from a re-analysis of the deposited data

How the results depend on the processing

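The count of glial markers that passed was 3 as deposited, 3 with p adjusted again over rows with a mean of at least 10 or over 1 row per gene, and 3 at an adjusted p under 0.01. It was 2 with the Bonferroni method, which left out Eaat1, and 1, wrapper, where at least 1.5-fold was also required, a stricter rule by construction, which 10.1% of all rows met. Centring on the median of all genes with a mean of at least 100 (-0.0083) or of the neuron markers (0.0013) turned no marker's direction and altered no call; the median of the 9 was then 0.07 with the first. Per kb of the longest transcript the levels became 14522 for Eaat1, 8509 for Eaat2, 62318 for Gs2, 1231 for moody and 12316 for nrv2, in the same order. No paired analysis was possible because values per library were not used here; leaving out single libraries was not run for the same reason. Flags for a library that stands apart could not be computed. At the markers' SE, which holds counting error and the spread between libraries together, differences under about 1.14-fold to 1.23-fold could not pass.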
